A study of Mus musculus with 20 samples.

Results

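The Slc22 organic ion transporters described here are 9 genes, Slc22a2, Slc22a6, Slc22a7, Slc22a8, Slc22a12, Slc22a13, Slc22a19, Slc22a28 and Slc22a30. They are members of the Slc22 family of plasma membrane transporters in a table of 24411 genes, which also held 16 other Slc22 genes. What was known when these 9 were picked is stated with the processing, and their counts beside those of all genes are to be read with it. All 9 passed the filter on low counts in every comparison.

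Bulk RNA-seq was performed on kidneys of 20 mice at P125, with 5 mutants and 5 controls of each sex from litter groups A, B and C. Mutants carried Pkd2fl/fl, Pax8rtTA and TetOCre, and controls lacked Pax8rtTA or TetOCre. Mutants and controls alike, all on a C57BL/6 background, received doxycycline at 50 mg/kg by intraperitoneal injection from P27 to P29. The Pax8 promoter drives rtTA in tubule cells along the whole nephron, so the deletion was not restricted to the proximal tubule, and whole kidney RNA also held cells in which Cre was not induced. Mice are named here by sex (M, F), genotype (C, control; M, mutant) and a number, so that FM4 is a female mutant.

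Each kidney was sequenced to a total of 11307741 to 19324073 counts, with a median of 15813304.5. FM4 stood apart from the other 19 libraries. It had the smallest total, with 14850 genes detected where the other mice had 16776 to 17724, and only 76 genes with a single count where the others had 708 to 859. The members' counts of calls, and their differences within females and between the sexes in mutants, are therefore also given without it. Levels are in CPM, each gene's counts scaled to the library total after TMM normalization, as mean ± SD over 5 mice.

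Pkd2, which encodes polycystin-2 and is the targeted gene, was measured at 291 ± 31.1 CPM in male controls and 119 ± 9.86 CPM in male mutants. In females it was measured at 257 ± 49.1 CPM in controls and 145 ± 33.6 CPM in mutants. In each sex every mutant lay below every control. The log2 difference was -1.32 in males (edgeR adjusted p = 2.18e-05) and -0.80 in females (edgeR adjusted p = 0.0276), the latter not past the threshold of 0.01 used for DEGs. Its sex by genotype term was -0.50 (unadjusted p = 0.0328, edgeR adjusted p = 1). The weight of 1 kidney as a percentage of body weight (KBW) was 0.692 ± 0.117% in male controls, 1.68 ± 0.338% in male mutants, 0.615 ± 0.0448% in female controls and 1.18 ± 0.261% in female mutants (n = 5 each).

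Tissue identity was checked with 20 proximal tubule markers, none of which was at 0 in every mouse. Slc34a1, the main apical phosphate transporter, was the most abundant of them with a mean of 4110 CPM. The summed level of the 20 markers was 25136 ± 646 CPM in male controls, 21777 ± 3217 CPM in male mutants, 22074 ± 1450 CPM in female controls and 17479 ± 4674 CPM in female mutants. It was lowest in MM1 among males, at 17234 CPM, and in FM3 among females, at 12504 CPM, the mutants of each sex with the highest KBW. In bulk RNA, fewer cells of a type and less RNA per cell cannot be told apart.

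Slc22 transporters move organic anions, cations and zwitterions across the membranes of the proximal tubule. Basolateral members take drugs, toxins and metabolites from the blood into the cell, the organic anion transporters by exchange against dicarboxylates, and apical members pass substrates to or from the tubule lumen, urate among them. Several members are known to differ between male and female rodents, under control of sex hormones.

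The members lay on 3 chromosomes (GRCm38, GENCODE vM21). Chromosome 19 held Slc22a12, Slc22a19, Slc22a28, Slc22a30, Slc22a8 and Slc22a6. Slc22a2 and Slc22a7 lay on chromosome 17, and Slc22a13 on chromosome 9. Levels of different genes were compared per kb of exon sequence. Slc22a12 ranked first in every group, with 948 CPM per kb in male controls, 708 in male mutants, 453 in female controls and 233 in female mutants. Only in female mutants did its range overlap that of the gene ranked next, Slc22a8 at 148 CPM per kb. In male controls Slc22a6 ranked second at 248 CPM per kb, followed by Slc22a2, Slc22a8 and Slc22a7 at 132.7, 124.9 and 118.3 CPM per kb, neighbours whose ranges overlapped. In female controls Slc22a7 and Slc22a8 came next to Slc22a12, at 161 and 152 CPM per kb with overlapping ranges, and Slc22a6 stood at 83.9 CPM per kb. At the low end, Slc22a19 ranked last in males, at 26.01 CPM per kb in controls and 14.1 in mutants. In females Slc22a30 ranked last, at 4.10 CPM per kb in controls and 2.31 in mutants.

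The 9 members together took up 0.429% to 0.496% of all counts in male controls and 0.347% to 0.434% in male mutants. The share was 0.271% to 0.341% in female controls and 0.154% to 0.278% in female mutants. Both mutant ranges overlapped those of the controls of the same sex, and every male control lay above every female.

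Differences between the sexes were asked first in controls. Of the 9 members 8 were DEGs in this comparison, 5 higher in males and 3 higher in females, where 17.8% of all 14123 genes tested were called by edgeR's quasi-likelihood test at an adjusted p below 0.01. With single mice left out edgeR called from 1223 (MC4) to 2659 (MC3) genes in place of 2510, and 7 to 8 members. The median male minus female log2 difference of the members was 0.94, and that of all genes tested -0.011. In mutants 7 of the 9 were called, 5 higher in males and 2 higher in females, against a background of 5.42% of 14416 genes. The DESeq2 Wald test called 1959 of these genes and 7 members. With all 20 mice in 1 fit, 2353 of 14820 genes and 7 members were called. Without FM4, 7 members were again called in mutants, while 1330 genes were called in place of 782. Without FM1, FM5 or MM5 only 4 members were called, with 246, 257 and 260 genes.

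Mutants were then compared with controls of the same sex. In males 3 of the 9 members were DEGs, all lower in mutants, against a background of 8.46% of 14010 genes. DESeq2 called 2001 genes and 5 members, and with single mice left out edgeR called from 187 (MC4) to 1863 (MM2) genes and 2 to 4 members. The median log2 difference of the members was -0.41, where that of all genes was -0.0020. In females edgeR called 0 of the 9 members, against a background of 0.637% of 14439 genes, while 5 members had an unadjusted p below 0.05 and the DESeq2 Wald test called 2. Of all genes 20.6% had an unadjusted p below 0.05, and DESeq2 called 928. The median log2 difference of the members in females was -0.62, with all 9 below 0, where that of all genes was -0.0029. The female count depended on single mice. Without FM4 edgeR called 866 genes in place of 92, and 1 member, Slc22a12, in place of 0, whereas without any other single female it called from 3 (FC2) to 57 (FM3) genes and 0 members.

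A joint comparison of the genotypes took both sexes in 1 fit, with sex and litter in the model. In it 4 members were DEGs, all lower in mutants, against a background of 15.9% of 14191 genes. These were Slc22a7, Slc22a12, Slc22a13 and Slc22a19. Without FM4 there were 5, Slc22a28 being added, while 2994 of 14274 genes were called in place of 2252. With sex in place of sex and litter there were 3 members and 2344 genes, Slc22a7 being lost (edgeR adjusted p = 0.0101). The DESeq2 Wald test called 5 members and 2973 genes, adding Slc22a30 (DESeq2 adjusted p = 0.00378). The sex by genotype term, which asks whether the mutant minus control difference itself differed between the sexes, was called by edgeR for 0% of 14820 genes and for 0 of the 9 members, with 618 genes and 1 member, Slc22a12, at an unadjusted p below 0.05. The DESeq2 Wald test called 18 genes and 0 members for that term, and edgeR without FM4 called 3 genes and 0 members. No difference in genotype effect between the sexes was therefore shown for any member at this threshold.

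**Figure D1:**
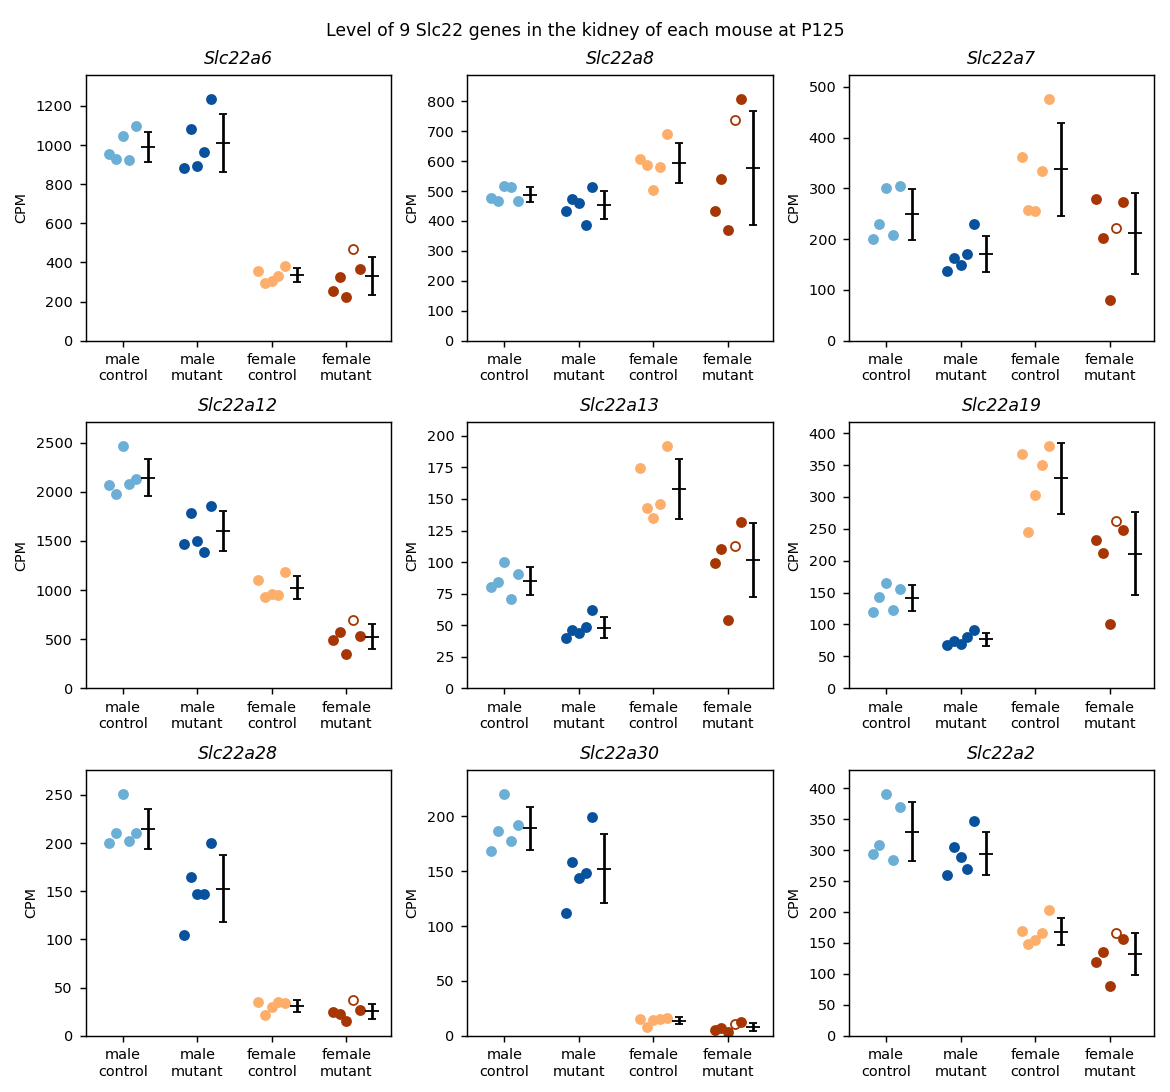
Level of each of the 9 members in CPM on a linear axis, with 1 point for each mouse in the 4 groups and mean ± SD beside the points (n = 5); the open point is FM4. Slc22a6, Slc22a2, Slc22a28 and Slc22a30 separate by sex in controls and mutants, and the 4 groups of Slc22a12 do not overlap.

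Slc22a6 encodes OAT1, the basolateral exchanger that takes up p-aminohippurate and many drugs. Its levels in MC1 to MC5 were 954, 927, 1045, 922 and 1097 CPM, and in MM1 to MM5 they were 883, 1080, 893, 963 and 1237 CPM. Levels in FC1 to FC5 were 357, 295, 307, 333 and 379 CPM, and in FM1 to FM5 they were 255, 326, 225, 471 and 367 CPM. Every male lay above every female, and within each sex mutants and controls overlapped, with FM4 the highest of all females. Male controls exceeded female controls by 1.56 ± 0.07 (SE) on the log2 scale, 2.94-fold (edgeR adjusted p = 1.60e-08), and male mutants exceeded female mutants by 1.66 ± 0.20 (edgeR adjusted p = 0.000541). The mutant minus control log2 difference was 0.04 in males and -0.01 in females, smaller than its SE of 0.08 and 0.17, and its sign changed when single mice were left out.

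Slc22a8 encodes OAT3, the other main basolateral organic anion exchanger of the proximal tubule. It ranged from 467 to 516 CPM in male controls and from 387 to 512 CPM in male mutants. Female controls ranged from 503 to 692 CPM, and female mutants from 370 to 809 CPM, the widest spread of its 4 groups. All groups overlapped their neighbours. Slc22a8 was the only member not called in any comparison. Its male minus female log2 difference was -0.26 ± 0.09 (SE) in controls (edgeR adjusted p = 0.0397) and -0.30 ± 0.19 in mutants (edgeR adjusted p = 0.314). The mutant minus control difference was -0.11 in males, and -0.17 to -0.04 with single mice left out. In females that difference was -0.04, and its sign changed without FC1, FM1 or FM3.

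Slc22a2 encodes OCT2, the basolateral organic cation transporter that takes up creatinine and metformin. It ranged from 284 to 391 CPM in male controls and from 260 to 347 CPM in male mutants. The range was 148 to 203 CPM in female controls and 80.4 to 166 CPM in female mutants. Every male exceeded every female, and the genotypes overlapped in each sex. Male controls exceeded female controls by 0.94 ± 0.09 (SE) on the log2 scale (edgeR adjusted p = 1.02e-05) and male mutants exceeded female mutants by 1.18 ± 0.17 (edgeR adjusted p = 0.00171). The call in mutants was lost without FM1, FM5 or MM5 (edgeR adjusted p = 0.0157, 0.0131 and 0.0128). The mutant minus control log2 difference was -0.15 ± 0.09 in males (edgeR adjusted p = 0.268) and -0.33 ± 0.16 in females (edgeR adjusted p = 0.256).

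Slc22a12 encodes the apical urate transporter URAT1, which recovers urate from the tubule lumen. Its levels in MC1 to MC5 were 2074, 1976, 2465, 2081 and 2135 CPM, and in MM1 to MM5 they were 1469, 1788, 1501, 1390 and 1857 CPM. In FC1 to FC5 they were 1101, 924, 963, 947 and 1186 CPM, and in FM1 to FM5 they were 489, 573, 350, 692 and 528 CPM. The 4 groups followed each other without overlap, from male controls over male mutants and female controls to female mutants. The sex difference was 1.05 ± 0.09 (SE) on the log2 scale in controls (edgeR adjusted p = 2.91e-06) and 1.61 ± 0.19 in mutants (edgeR adjusted p = 0.000446).

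With both sexes in 1 fit, Slc22a12 fell by 0.68 ± 0.12 (SE) on the log2 scale in mutants (edgeR adjusted p = 0.000441). The difference was -0.41 ± 0.09 in males (edgeR adjusted p = 0.0105) and -0.94 ± 0.17 in females (edgeR adjusted p = 0.0133), each just above the threshold of 0.01. Under the alternatives run, adjusted p spanned 0.000192 to 0.0767 in males and 1.90e-06 to 0.0588 in females. Without FM4 the female difference was -1.07 (edgeR adjusted p = 0.00163). Within litters the log2 CPM difference ran from -0.53 to -0.20 in males and from -1.17 to -0.87 in females, with a negative value in 3 of 3 litters each. The sex by genotype term for Slc22a12 was 0.55 ± 0.21 (unadjusted p = 0.0164, edgeR adjusted p = 1), so the larger female value was not shown to differ from the male one.

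Slc22a13 encodes OAT10, an apical exchanger of nicotinate and urate. In MC1 to MC5 it was measured at 80.2, 84.1, 99.8, 70.5 and 90.9 CPM, and in MM1 to MM5 at 39.9, 45.9, 43.6, 48.7 and 62.1 CPM. The female values were 174, 143, 135, 146 and 192 CPM in FC1 to FC5, and in FM1 to FM5 99.3, 111, 53.7, 113 and 131 CPM. Mutants and controls did not overlap in either sex, FM3 being far below the other female mutants, and only in mutants did the sexes overlap.

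In male mutants Slc22a13 fell by 0.82 ± 0.10 (SE) on the log2 scale (edgeR adjusted p = 0.000770), a call that held under each alternative and without any single mouse. Its difference in females was -0.62 ± 0.17 (edgeR adjusted p = 0.0571, and 0.00649 to 0.171 over the alternatives), and the sex by genotype term was -0.17 ± 0.22 (edgeR adjusted p = 1). Male controls lay below female controls by a log2 difference of -0.97 ± 0.08 (edgeR adjusted p = 1.81e-06), and male mutants below female mutants by -1.06 ± 0.18 (edgeR adjusted p = 0.00415). The call in mutants was lost without any of FM1, FM2, FM5, MM3, MM4 and MM5, the highest edgeR adjusted p being 0.0350 without FM1.

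Slc22a7 encodes OAT2, a transporter of organic anions and nucleotides such as cyclic GMP. Its levels in MC1 to MC5 were 199.8, 230.4, 299.8, 208 and 305 CPM, and in MM1 to MM5 they were 138, 163, 149, 171 and 229 CPM. In FC1 to FC5 they were 363, 257, 256, 335 and 477 CPM, and in FM1 to FM5 they were 279.8, 202, 79.7, 222 and 273 CPM. Neighbouring groups overlapped throughout, and FM3 was the lowest of all mice. The mutant minus control log2 difference was -0.55 ± 0.11 (SE) in males (edgeR adjusted p = 0.00655) and -0.67 ± 0.23 in females (edgeR adjusted p = 0.119), with a sex by genotype term of 0.14 ± 0.29 (edgeR adjusted p = 1). The male call was lost without the litter term (edgeR adjusted p = 0.0170) and when all 20 mice were fitted together (edgeR adjusted p = 0.123), and also without MC2, MC4, MC5, MM1, MM3 or MM5, the highest edgeR adjusted p being 0.0236 without MC4. Male controls lay below female controls by a log2 difference of -0.50 ± 0.12 (edgeR adjusted p = 0.00855). That call was lost with DESeq2 size factors (edgeR adjusted p = 0.0104), without the litter term (0.0863), with all 20 mice in 1 fit (0.0811) and without any of MC1, MC2, MC4, MC5, FC1, FC4 and FC5, over alternatives that gave adjusted p of 0.00107 to 0.0863. Between male and female mutants the log2 difference was -0.33 ± 0.25 (edgeR adjusted p = 0.394), with a negative value in 2 of 3 litters.

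Slc22a19 encodes Oat5, an apical transporter of steroid sulfates in the late proximal tubule. In MC1 to MC5 it was measured at 119, 143, 165, 123 and 156 CPM, and in MM1 to MM5 at 67.0, 73.5, 69.8, 80.2 and 91.9 CPM. Among females, FC1 to FC5 had 367, 245, 303, 351 and 379 CPM, and FM1 to FM5 had 233, 213, 100.3, 262 and 248 CPM. The male genotypes did not overlap, the female genotypes did through FC2, FM4 and FM5, and every male lay below every female of the same genotype. Slc22a19 fell by 0.89 ± 0.10 (SE) on the log2 scale in male mutants (edgeR adjusted p = 0.000422), and this held under each alternative and without any single mouse. The difference in female mutants was -0.62 ± 0.21 (edgeR adjusted p = 0.113), and the sex by genotype term was -0.24 ± 0.26 (edgeR adjusted p = 1). Males lay below females by a log2 difference of -1.27 ± 0.12 in controls (edgeR adjusted p = 7.50e-06) and -1.46 ± 0.22 in mutants (edgeR adjusted p = 0.00186). In mutants the call was lost without FM1, FM5, MM3 or MM5, with edgeR adjusted p of up to 0.0201.

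Slc22a28 and Slc22a30 belong to the organic anion transporter branch of the family that expanded in rodents. Slc22a28 was measured in MC1 to MC5 at 199.7, 210.6, 251.1, 202 and 210.7 CPM, and in MM1 to MM5 at 105, 165, 147, 147 and 200.3 CPM. In FC1 to FC5 it was measured at 34.9, 21.3, 29.4, 35.0 and 33.9 CPM, and in FM1 to FM5 at 24.2, 22.4, 15.1, 37.5 and 26.9 CPM. The lowest male, MM1, was above the highest female, FM4, and the genotypes overlapped within each sex. Males exceeded females by 2.76 ± 0.13 (SE) on the log2 scale in controls, 6.78-fold (edgeR adjusted p = 1.73e-08), and by 2.63 ± 0.23 in mutants (edgeR adjusted p = 6.14e-05). The mutant minus control log2 difference was -0.51 ± 0.13 in males (edgeR adjusted p = 0.0193, but called by DESeq2 at 0.00181 and by edgeR without the filter on low counts at 0.00892, and 0.00181 to 0.0859 over all alternatives) and -0.28 ± 0.21 in females (edgeR adjusted p = 0.532). Without FM4 the female difference of Slc22a28 was -0.50 (edgeR adjusted p = 0.062). In the joint comparison the difference was -0.40 (edgeR adjusted p = 0.0413), and without FM4 -0.51 (edgeR adjusted p = 0.00183).

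Slc22a30 had the largest sex difference of the 9 members. Its levels in MC1 to MC5 were 168, 187, 221, 178 and 192 CPM, and in MM1 to MM5 they were 112, 159, 144, 148 and 199.2 CPM. In FC1 to FC5 they were 15.4, 7.69, 14.4, 15.4 and 16.2 CPM, and in FM1 to FM5 they were 5.25, 7.37, 3.24, 10.7 and 12.3 CPM. The sexes were far apart in both genotypes, and mutants overlapped controls in each sex. Males exceeded females by 3.74 ± 0.17 (SE) on the log2 scale in controls, 13.4-fold (edgeR adjusted p = 1.25e-08), and by 4.40 ± 0.28 in mutants, 21.1-fold (edgeR adjusted p = 5.26e-06). The mutant minus control log2 difference was -0.33 ± 0.12 in males (edgeR adjusted p = 0.0679) and -0.87 ± 0.31 in females (edgeR adjusted p = 0.128), with a sex by genotype term of 0.57 ± 0.34 (edgeR adjusted p = 1).

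Without FM4 the mutant minus control log2 difference in females was -0.47 for Slc22a2, -0.19 for Slc22a6, -0.79 for Slc22a7, -0.19 for Slc22a8, -0.72 for Slc22a13, -0.78 for Slc22a19, -0.50 for Slc22a28 and -1.09 for Slc22a30. None of these 8 was past the threshold, the smallest edgeR adjusted p being 0.0207 for Slc22a13. Between male and female mutants the log2 difference without FM4 was 1.30 for Slc22a2, 1.83 for Slc22a6, -0.24 for Slc22a7, -0.16 for Slc22a8, 1.73 for Slc22a12, -0.98 for Slc22a13, -1.33 for Slc22a19, 2.82 for Slc22a28 and 4.59 for Slc22a30, with the same 7 members called.

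Litter was spread over the groups, with 1 to 3 mice of a group in each litter. Within litters, Slc22a2, Slc22a7, Slc22a12, Slc22a13, Slc22a19 and Slc22a28 were lower in mutants in 3 of 3 litters in each sex, on the scale of mean log2 CPM. Slc22a30 was lower in 3 of 3 litters in females and in 2 of 3 in males, Slc22a8 in 2 of 3 in each sex, and Slc22a6 in 2 of 3 in females and 0 of 3 in males. The male minus female difference of the 7 members called in both genotypes kept its sign in 3 of 3 litters, in controls and in mutants, for example 3.56 to 3.88 for Slc22a30 and -1.38 to -1.27 for Slc22a19 in controls.

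Levels were next related to KBW in the 10 mutants, with sex in the model. All 9 slopes were negative, from -0.59 for Slc22a12 to -1.21 for Slc22a30 in log2 units per percentage point of KBW. Their median was -0.66, that of the 20 proximal tubule markers -0.80 with 19 below 0, and that of all genes -0.057, while the medians of the macrophage and injury genes were 2.38 and 3.19. Genes of the thick ascending limb and distal convoluted tubule, podocytes and the collecting duct also had negative medians, of -1.04, -0.65 and -0.57. None of the members passed the threshold: edgeR called 0% of 14416 genes and 0 of the 9 members, with 3212 genes and 6 members at an unadjusted p below 0.05, and the DESeq2 Wald test called 577 genes and 0 members. In counts simulated for the 10 mutants, 200 genes were given a log2 slope of 1 in either direction. The same edgeR test called 4 of them, so a slope that was not called is not shown to be absent. The smallest edgeR adjusted p of a member was 0.0812, for Slc22a28 with a slope of -1.02 ± 0.30 (SE). In males alone the 9 slopes ran from -0.64 to -0.07 and in females alone from -2.638 to -0.9997. Without the sex term the slope turned positive for the 5 members with higher levels in males. FM4 was the female mutant with the lowest KBW. Without it edgeR called 0 members, and the slope of Slc22a28 was -0.79 (edgeR adjusted p = 0.253). The slopes then ran from -1.13 for Slc22a30 to -0.41 for Slc22a12, all negative. With any single mutant left out all 9 slopes stayed negative, but their size moved. The slope ran from -1.86 to -0.85 for Slc22a30, from -0.98 to -0.12 for Slc22a7 and from -0.78 to -0.37 for Slc22a12. The range was -1.06 to -0.29 for Slc22a13 and -1.04 to -0.25 for Slc22a19.

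**Figure D2:**
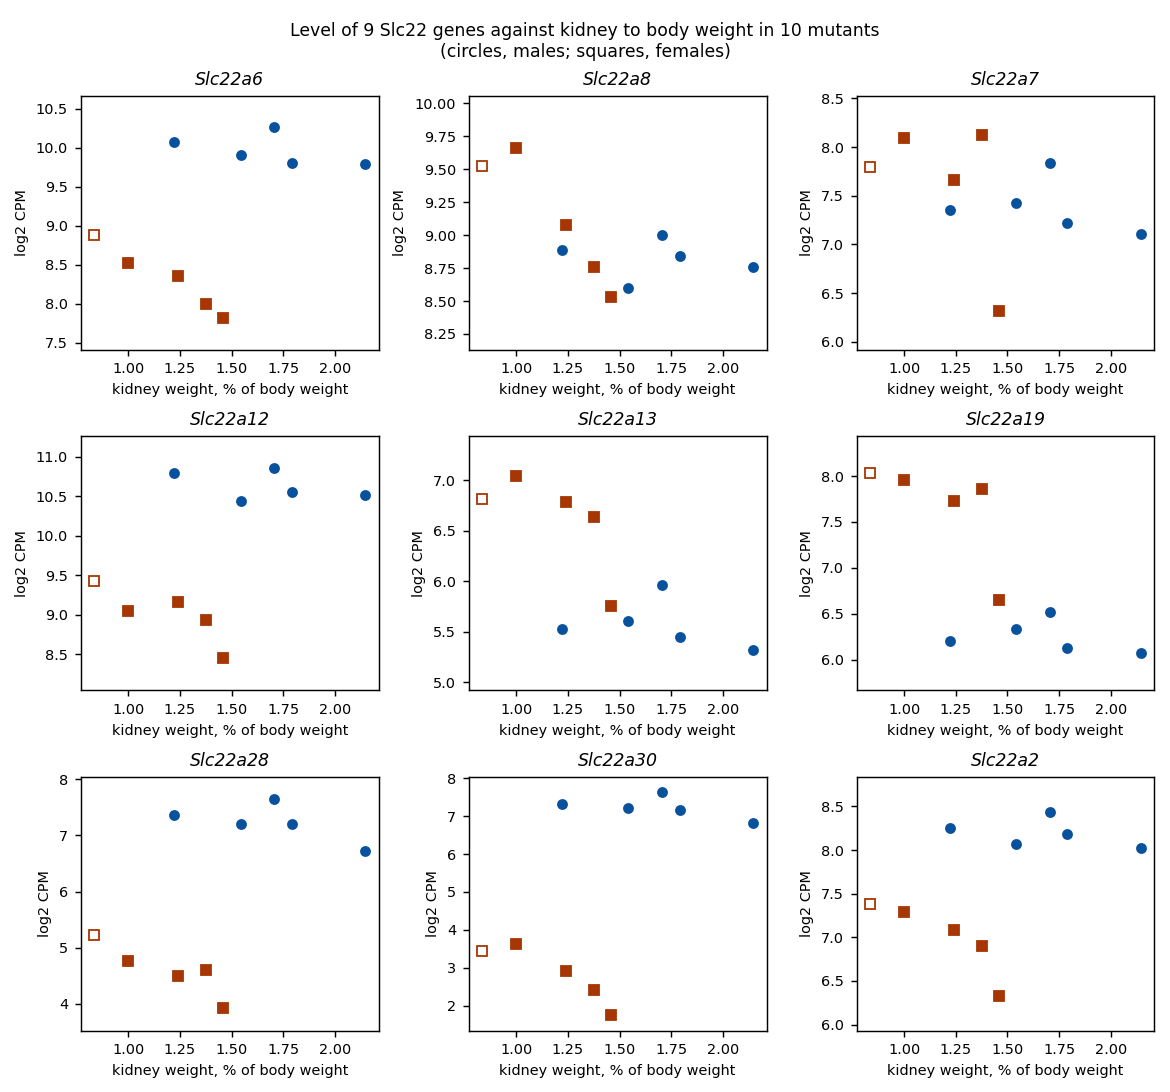
Log2 CPM of each member on the vertical axis against KBW in percent on the horizontal axis, with 1 point for each of the 10 mutants (circles, males; squares, females; open square, FM4). The female with the highest KBW, FM3 at 1.46%, has the lowest level among female mutants for each of the 9 genes, and the sexes do not overlap for Slc22a6, Slc22a12, Slc22a28, Slc22a30 and Slc22a2, higher in males, and Slc22a19, higher in females.

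Because the proximal tubule markers also had a lower mean in mutants, each member was set against the mean log2 CPM of the 20 markers in the same mouse. That mean was 9.38 ± 0.04 in male controls, 9.20 ± 0.21 in male mutants, 8.92 ± 0.08 in female controls and 8.63 ± 0.35 in female mutants (n = 5). On this relative scale male mutants were lower than male controls by a log2 difference of -0.65 for Slc22a13 and -0.70 for Slc22a19 (two-sided exact permutation test, p = 0.00794 each). Female mutants were lower than female controls by -0.70 for Slc22a12 (exact permutation p = 0.00794). For each of these, splits of 5 against 5 mice can give no smaller p. The other sex went in the same direction for each of these genes. In females the relative difference was -0.40 for Slc22a13 and -0.41 for Slc22a19 (exact permutation p = 0.0635 and 0.0714). In males it was -0.25 for Slc22a12 (exact permutation p = 0.0238). A difference between the sexes was not tested on this scale. Of the 18 exact permutation tests run, 2 in males and 1 in females were past 0.05 after adjustment over the 18. These splits ignored litter. With splits within litter only, an alternative added after the data were seen, the exact permutation p was 0.0167 for Slc22a13 and Slc22a19 in males and 0.025 for Slc22a12 in females, and 0 of the 18 tests were past 0.05 after adjustment (8 were at an unadjusted p of 0.05 or below; DESeq2 was not run on this scale). With only 60 such splits in males and 80 in females, 0.0167 is the smallest p possible in males, so this adjustment could hardly be passed. The other 15 tests had exact permutation p of 0.0159 or more, and Slc22a6 lay on the positive side in both sexes, with relative differences of 0.21 and 0.22 (exact permutation p = 0.0476 in males and 0.0397 in females). The female result for Slc22a12 was no longer past that threshold without FC1, FC3 or FC5, with relative differences of -0.67, -0.69 and -0.67; without FM4 it was kept.

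Markers of other kidney cells were also compared between genotypes. Of 7 tubule injury genes 6 were higher in male mutants, led by Krt20, Havcr1 and Lcn2, and 1 in female mutants, Havcr1 at 92.4 ± 77.0 CPM against 0.575 ± 0.121 CPM in female controls. In females 6 of the 7 had an unadjusted p below 0.05, DESeq2 called 6, and none of the 7 log2 differences was below 0. The summed level of the injury list, in which Spp1 was the most abundant gene, was 1160 ± 122 CPM in male controls, 4423 ± 3336 in male mutants, 2423 ± 199 in female controls and 7098 ± 3766 in female mutants, and was highest in MM1 at 10160 CPM and FM1 at 11085 CPM. Of 6 macrophage genes 5 were higher in male mutants and edgeR called 0 in females, where 6 had an unadjusted p below 0.05 and DESeq2 called 3, with summed levels of 128 ± 11.2 CPM in male controls and 345 ± 155 CPM in male mutants, and of 155.8 ± 14.6 and 461 ± 272 CPM in females. In females edgeR called 0 of 6 fibroblast genes, with 5 at an unadjusted p below 0.05 and 5 called by DESeq2. In male mutants 4 of the 6 were higher, among them Col3a1 with a log2 difference of 2.29 and Col1a1 with 2.25. Their summed level was 240.2 ± 28.7 CPM in male controls, 686 ± 305 CPM in male mutants, 319.9 ± 64.5 CPM in female controls and 827 ± 417 CPM in female mutants. The most abundant genes of the macrophage and fibroblast lists were Lyz2 and Col3a1. None of the macrophage, fibroblast or injury genes was at 0 in every mouse, and the part of these cells in the differences of the members was not tested.

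Genes of distal segments were compared in the same way. Of 5 genes of the thick ascending limb and distal convoluted tubule 4 fell in male mutants and 1, Slc12a3, in female mutants, by 1.18 on the log2 scale (edgeR adjusted p = 0.00772), and the summed level, with Umod the most abundant, was 8300 ± 344 CPM in male controls, 5602 ± 491 in male mutants, 11849 ± 390 in female controls and 6984 ± 1060 in female mutants. In females all 5 had a log2 difference below 0 and an unadjusted p below 0.05, DESeq2 called 5, and the median was -1.18, where that of males was -1.04. Of 7 collecting duct genes 2 fell in male mutants, Slc4a1 and Atp6v1g3, and of 5 podocyte genes 2 fell, among them Nphs1. In females edgeR called 0 of the collecting duct and 0 of the podocyte genes, with 6 and 4 at an unadjusted p below 0.05 and 1 and 2 called by DESeq2, and 6 of the 7 collecting duct genes had a log2 difference below 0, with a median of -0.33. Collecting duct genes, with Aqp2 the most abundant, summed to 658.5 CPM in male controls, 513.9 in male mutants, 843.1 in female controls and 706.9 in female mutants. For podocyte genes, with Podxl the most abundant, the sums were 347.8, 259.9, 549.8 and 389.8 CPM in the same order. Of the 20 proximal tubule markers 15 had a log2 difference below 0 in males (median -0.16) and 18 in females (median -0.28). The joint comparison called 3 of them lower in mutants, Miox, Pck1 and Slc5a10, and 1 higher, Slc13a1. Miox fell by 0.95 on the log2 scale in male mutants (edgeR adjusted p = 0.00185), and Slc13a1, a sulfate transporter, rose by 0.65 (edgeR adjusted p = 0.00473). In females the log2 difference was -0.78 for Miox (edgeR adjusted p = 0.0329) and 0.57 for Slc13a1 (edgeR adjusted p = 0.0124), neither past the threshold. Liver genes summed to 161.6 ± 23.4 CPM in male controls, 178.1 ± 30.1 in male mutants, 109.3 ± 20.7 in female controls and 104.5 ± 16.7 in female mutants, with Ttr the most abundant and Fga and Fgb higher in male mutants. MM5 stood apart in Alb, at 54.06 CPM where the median of male mutants was 6.223 CPM, and in Apoa1, at 8.577 CPM where it was 0.5467 CPM (these 2 genes were picked after their values were seen). MM5 was also the highest male mutant for each of the 9 members, and without it edgeR called 758 genes and 2 members in males, Slc22a7 being lost. Among male mutants MM5 also had the highest summed level of the 20 proximal tubule markers, at 25286 CPM. Its summed level of the injury list was the lowest, at 1991 CPM. The part of any of these in its member levels was not tested. Adrenal genes were at 4.53 to 6.56 CPM in the group means of their sum, most of it Star. The other 3 of the 4 genes in the list had means under 1 CPM. Cyp21a1 had at most 1 count in any mouse, while Cyp11b1 reached 6 counts in MM1 and Cyp11a1 6 counts in FM1.

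Sex differences were also found in the proximal tubule list. In controls 4 of the 20 markers were higher in males, among them Slc7a13 with 1424 ± 87.1 CPM against 2.11 ± 1.01 CPM in female controls, and 2 were lower, Slc7a8 and Slc5a10. In mutants 1 of the 20 was called, Slc7a13.

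Of the 16 other Slc22 genes, Slc22a16 and Slc22a20 had no count in any mouse. The 16 genes summed to 1627 CPM in male controls, 1490 in male mutants, 1447 in female controls and 1161 in female mutants. Among the 14 tested between the sexes in controls, 2 were higher in males and 4 in females. Slc22a22, a prostaglandin transporter, was measured at 148 ± 11.6 CPM in male controls and 38.4 ± 4.72 CPM in female controls, with a log2 difference of 1.962 (edgeR adjusted p = 3.33e-08). Slc22a29 went the other way, with 5.44 ± 0.499 CPM in male controls and 72.4 ± 7.49 CPM in female controls, a log2 difference of -3.76 (edgeR adjusted p = 1.44e-10). Slc22a27 was near the limit of detection in males, at 0.242 ± 0.0989 CPM and no more than 4 counts in any male control, and at 3.53 ± 1.12 CPM in female controls. In male mutants 2 of 12 tested fell, Slc22a26 with a log2 difference of -1.102 (edgeR adjusted p = 0.000520) and Slc22a23 with -0.41 (edgeR adjusted p = 0.00366). In females the difference of Slc22a26 was -1.53 (edgeR adjusted p = 0.0125). In the joint comparison Slc22a15 rose by 0.76 (edgeR adjusted p = 0.000388) and Slc22a26, Slc22a22, Slc22a23 and Slc22a17 fell.

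On chromosome 19 the direction of the sex difference changed between neighbouring genes. In order along the chromosome, the male minus female log2 difference in controls was 1.05 for Slc22a12, -1.27 for Slc22a19, -0.24 for Slc22a26, -3.70 for Slc22a27, 2.76 for Slc22a28, -3.76 for Slc22a29, 3.74 for Slc22a30, -0.26 for Slc22a8 and 1.56 for Slc22a6. Slc22a26 and Slc22a8 did not pass the test. Slc22a29, at chr19:8160165-8218900, lay between Slc22a28 at chr19:8062209-8131982 and Slc22a30 at chr19:8335371-8405111, all on the minus strand, and was the female-high gene between a pair of male-high genes.

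**Figure D3:**
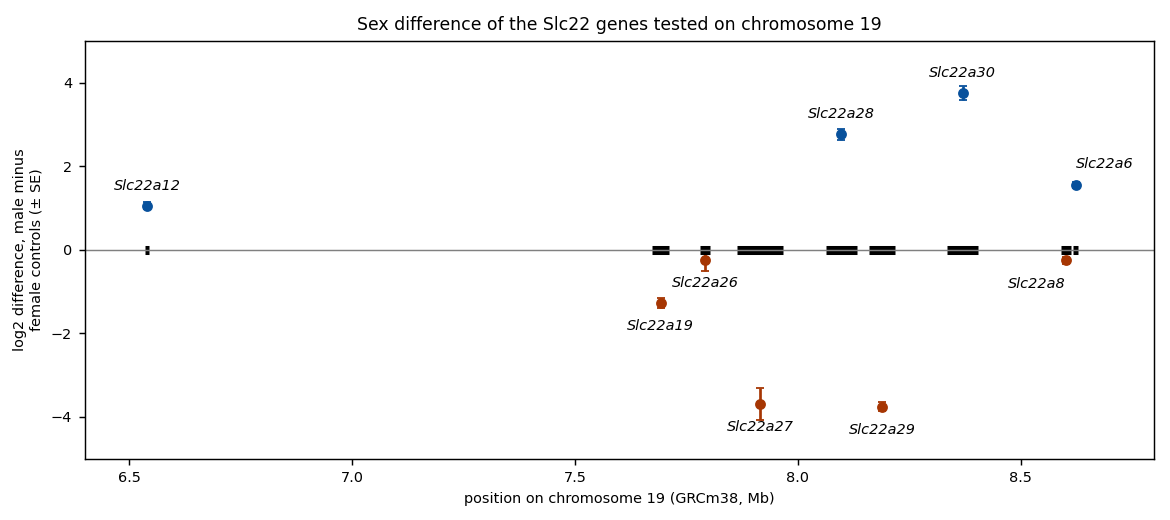
Male minus female log2 difference in controls with its SE (vertical axis) for the 9 Slc22 genes tested on chromosome 19, at their position in Mb of GRCm38 (horizontal axis); black bars are the gene spans, blue points are higher in males and brown points higher in females. Slc22a29 at -3.76 lies between Slc22a28 at 2.76 and Slc22a30 at 3.74.

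Transporters that work beside the members were taken from a list of 18, which holds the dicarboxylate transporter that loads the organic anion exchangers, apical efflux pumps and the scaffold Pdzk1, the most abundant at a mean of 1192 CPM. Their summed level was 6989 ± 284 CPM in male controls, 6116 ± 926 in male mutants, 4782 ± 324 in female controls and 3737 ± 860 in female mutants. In controls 9 of the 18 were higher in males and 4 in females. Slco1a1, an organic anion transporting polypeptide, was measured at 556 ± 119 CPM in male controls and at no more than 0.236 CPM in any female control. Abcc3, a basolateral efflux pump, was measured at 2.86 ± 1.15 CPM in male controls and 156 ± 39.1 CPM in female controls, a log2 difference of -5.77 (edgeR adjusted p = 1.43e-08). The efflux pump Abcc4 had a log2 difference of -1.81 (edgeR adjusted p = 2.17e-07). In mutants 8 of the 18 were higher in males and 3 in females.

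In male mutants 2 of the 18 partner transporters rose and 2 fell. The multidrug pumps Abcb1b and Abcb1a rose by 1.04 and 0.87 on the log2 scale (edgeR adjusted p = 0.00166 and 0.00137). Slc13a3, the basolateral dicarboxylate transporter, fell by 0.69 (edgeR adjusted p = 0.000787), and Slco4c1 fell by 0.82 (edgeR adjusted p = 0.00395). In females edgeR called 0 of 17 tested, with 7 at an unadjusted p below 0.05, 4 called by DESeq2 and 14 below 0; Slc13a3 had a log2 difference of -0.70 (edgeR adjusted p = 0.0567). The joint comparison called 5, all lower in mutants, with Slco4c1, Slc13a3 and the urate transporter Slc2a9 leading.

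Of 18 hormone receptors and transcription factors known to act on transporter genes 17 were tested, and in controls 4 were higher in males and 1 in females. The prolactin receptor gene Prlr was measured at 28.1 ± 12.5 CPM in male controls and 385 ± 54.4 CPM in female controls, a log2 difference of -3.91 (edgeR adjusted p = 6.15e-08). Esr1 and Rxra were among those higher in males, at 0.69 and 0.46. The list summed to 3330 ± 230 CPM in male controls, 3026 ± 275 in male mutants, 3114 ± 210 in female controls and 2505 ± 470 in female mutants. Hnf4a was measured at 953.5 ± 57.2 CPM in male controls and 783.5 ± 55.9 CPM in female controls and was not called (it was picked after its values were seen). In male mutants Ghr, the most abundant of the list at a mean of 885 CPM, fell by 0.37 (edgeR adjusted p = 0.00634). In females edgeR called 0 of 17 tested, with 4 at an unadjusted p below 0.05 and 1 called by DESeq2. There Ghr was measured at 926 ± 103 CPM in controls and 668 ± 136 CPM in mutants. In the joint comparison Ghr and Esr1 RNA fell by 0.41 and 0.54. For ESR1 protein the authors reported the other direction by Western blot, with more in mutants of each sex at P125.

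The genes whose log2 CPM most resembled each member were taken by Pearson's r over the 20 mice, which fall into groups by sex and genotype, so that r mainly describes the 4 group levels. Slc22a13 and Slc22a19 were each other's most alike gene, with r = 0.979 over 20 mice and 0.982 over 19 without FM4. For Slc22a30 and Slc22a28 r was 0.989 (0.991 without FM4). Slc22a28 was most like Ugt2b38 (r = 0.991) and Slc22a30 most like Ces2c and Ldhd (r = 0.990 each). Slc22a6 was most like Aldh3a2 (r = 0.992), Slc22a2 most like Ggt1 (r = 0.989), Slc22a12 most like Cyp2a4 (r = 0.978), Slc22a7 most like Acadm (r = 0.956) and Slc22a8 most like Papss2 (r = 0.910). Without FM4 the first place changed for Slc22a30, to Slc22a28, and Aldh3a2 for Slc22a6 and Papss2 for Slc22a8 no longer came first. The lowest r between members was -0.682, for Slc22a6 and Slc22a19.

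Some members share sequence with close relatives, so that short reads could be assigned to either gene. Of the 50-base stretches of Slc22a28 transcripts, 53.9% also occurred in another gene, 1042 of them in Slc22a30, and of those of Slc22a30 34.2% did. Slc22a28 also shared 118 stretches with Slc22a29 and 149 with Slc22a27, and Slc22a30 shared 218 and 169. How counts divide among these 4 neighbours is therefore uncertain, which bears on their sex differences and on r. For Slc22a13 36.0% of stretches were shared with the pseudogene Slc22a13b-ps, which had 1 to 16 counts per mouse, and the gene lies within the span of Slc22a14 on the same strand, a gene with 3 to 43 counts per mouse. The share was 4.15% for Slc22a2, 0.985% for Slc22a19, 0.457% for Slc22a8 and 0% for Slc22a6, Slc22a7 and Slc22a12.

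Promoter windows from RefSeq (GRCm38.p6), with 250 bases before and 50 bases after the gene start, were matched for 8 of the 9 members; that of Slc22a7 was missing. Over all pairs the most alike were Slc22a28 and Slc22a30, the male-high pair, with 288 identical bases in 306 alignment columns (94.1%). Slc22a19, which is higher in females, had 60.7% identity with Slc22a28 and 61.5% with Slc22a30, and all other pairs lay between 42.5% and 50.5%. The pair is printed to show how little separates them, at chr19:8131933-8132232 for Slc22a28 and chr19:8405056-8405355 for Slc22a30, each on the minus strand, 5′ to 3′, with capitals at the 6 substituted bases and at the 6 bases of each window that have no partner in the other.
Slc22a28: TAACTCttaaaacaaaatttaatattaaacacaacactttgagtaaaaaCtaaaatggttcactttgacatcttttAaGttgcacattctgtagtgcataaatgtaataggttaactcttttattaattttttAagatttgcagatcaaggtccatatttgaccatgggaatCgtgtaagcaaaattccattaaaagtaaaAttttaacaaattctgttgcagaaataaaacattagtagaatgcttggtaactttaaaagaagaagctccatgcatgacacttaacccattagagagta
Slc22a30: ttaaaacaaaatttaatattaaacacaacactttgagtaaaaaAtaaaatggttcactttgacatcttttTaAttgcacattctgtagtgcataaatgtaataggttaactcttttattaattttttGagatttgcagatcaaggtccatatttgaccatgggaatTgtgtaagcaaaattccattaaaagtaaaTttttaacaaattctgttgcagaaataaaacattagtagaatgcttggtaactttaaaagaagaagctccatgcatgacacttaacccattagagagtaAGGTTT

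Motifs were searched on both strands of these windows: AGAACA, an arm of the element bound by glucocorticoid receptors; AGGTCA, bound by many nuclear receptors; CAAAGTCCA for HNF4; GTTAATNAT, bound by homeodomain factors; and TTCNNNGAA for STAT factors. Among all 32851 promoter windows, AGAACA occurred in 19%, AGGTCA in 16.3%, CAAAGTCCA in 0.475%, GTTAATNAT in 0.801% and TTCNNNGAA in 8.30%. Of the 8 members with a window only Slc22a19 held a match. Its window, at chr19:7711261-7711560 on the minus strand, is printed because it is the female-high relative of the pair, with the matches in capitals: TTCNNNGAA at bases 27 to 35 and 128 to 136, and AGAACA on the opposite strand at bases 81 to 86, with no overlap between them.
Slc22a19: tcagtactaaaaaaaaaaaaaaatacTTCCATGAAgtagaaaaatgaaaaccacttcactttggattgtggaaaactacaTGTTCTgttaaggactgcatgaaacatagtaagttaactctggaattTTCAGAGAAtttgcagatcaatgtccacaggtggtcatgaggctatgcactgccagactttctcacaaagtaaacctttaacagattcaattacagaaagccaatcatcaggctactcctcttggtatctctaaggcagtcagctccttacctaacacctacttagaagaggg
In the other 7 windows none of these letters were found, which says nothing of sites elsewhere. Among the other Slc22 genes of the cluster, Slc22a26 held AGAACA and TTCNNNGAA, Slc22a27 held AGGTCA and Slc22a29 held GTTAATNAT. Outside the cluster, AGAACA occurred in Slc22a18 and Slc22a22, both called higher in males in controls. AGGTCA occurred in Slc22a14, called higher in females, and TTCNNNGAA in Slc22a15 and Slc22a16, neither of them called. A relation between motifs and sex difference was not tested.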

How the data were processed

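Read counts per gene symbol were used as deposited by the authors, who used fastp 0.23.2 for trimming and STAR 2.7.10b for alignment to mm10. The counting tool, gene annotation and strandedness are not given in the sources used here. In R 4.3.3, edgeR 4.0.16 (TMM, filterByExpr, quasi-likelihood tests, Benjamini-Hochberg adjustment over all genes tested, threshold 0.01) was run on each comparison with litter as covariate. The joint fit and the sex by genotype term used 6 groups of sex and litter, and the slope on KBW used sex. CPM and log2 CPM (prior count of 2) were computed from TMM library sizes. DESeq2 1.42.0 (Wald test, and its size factors), other filters, fits without litter, fits of all 20 mice and fits without each mouse were the alternatives. For proximal tubule markers the alternatives were a list of 4 genes, a prior count of 0.5 and, added after the data were seen, splits within litter.

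Named genes were the 9 members, the other 16 Slc22 genes (values where a group mean reached 1 CPM), Pkd2, the 3 genes of highest r with each member, and, of each list, its most abundant gene and at most 3 called genes per direction. The lists held partner transporters, regulators, tubule injury genes and markers of fibroblasts, macrophages, liver, adrenal gland, podocytes, the proximal tubule, the collecting duct, and the thick ascending limb with the distal convoluted tubule. Some values that this rule names are not reported here. Members and lists were chosen with earlier results of these data known.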

Additional observations from a re-analysis of the deposited data

Results flagged for a closer look

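Slc22a28 in MC3 was 251 CPM, far above the other male controls, the nearest of which had 211 CPM. Slc22a30 in FC2 was 7.69 CPM, far below the other female controls, the nearest of which had 14.4 CPM. These were 2 of the 36 groups of member levels looked at, where chance alone picks out about 1 in 20. KBW in MC5 was 0.896%, far above the other male controls, the nearest of which had 0.678%, in 1 of 4 groups.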

How the results depend on the processing

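Of 1431 alternative values for single genes, 1336 kept their direction and side of the threshold, 38 fell back behind it, 18 passed it and 39 changed sign; the cause was not tested. No paired analysis was possible because the numbers of the mice only give an order within each group and pair no mouse with another; litter was in the models instead.

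With the DESeq2 Wald test 2001 genes and 5 members were called in males, 928 and 2 in females, 1959 genes between the sexes in mutants, 18 for the sex by genotype term and 577 for the slope on KBW. With no filter on low counts 1574 of 19162 genes and 5 members were called in males, and 230 of 19367 genes and 1 member in females. For the sex by genotype term 2 genes were called with no filter, against 1 with at least 10 counts in every mouse. Without litter, 172 genes and 1 member were called in females. With all 20 mice in 1 fit, 856 genes and 2 members were called in females and 2353 genes between the sexes in mutants. For the slope on KBW, 10 genes were called with litter added, 34 with log2 KBW and 44 in females only. Without the sex term the slope was 0.7466 for Slc22a2, 1.048 for Slc22a6, 1.113 for Slc22a12, 1.772 for Slc22a28 and 2.891 for Slc22a30. Against 4 proximal tubule markers, 4 members were past the threshold in males and Slc22a2 was at -0.03356. With splits within litter, added after the data were seen, 0 were past it in males and 0 in females.

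With each mouse left out in turn, genes called ran from 187 (MC4) to 1863 (MM2) in males, with 2 to 4 members, and from 3 (FC2) to 866 (FM4) in females, with 0 to 1 members (1 without FM4). Between the sexes they ran from 1223 (MC4) to 2659 (MC3) in controls, with 7 to 8 members, and from 246 (FM1) to 1330 (FM4) in mutants, with 4 (FM1, FM5 or MM5) to 7 members. The joint comparison gave 1656 to 2994 genes and 4 to 5 members, the sex by genotype term 0 to 3 genes (3 without FM4), and the slope on KBW 0 to 76 (MM5). Relative to proximal tubule markers 2 to 3 members were past the threshold in males and 0 (FC1, FC3 or FC5) to 1 in females. Differences that changed sign ran, for Slc22a6, from -0.01232 to 0.09569 in males, from -0.1945 to 0.1064 in females and from -0.07861 to 0.06602 jointly, and for Slc22a8 from -0.1927 to 0.06597 in females. The sex by genotype term ran from -0.03925 to 0.2634 for Slc22a6, -0.042 to 0.2689 for Slc22a7, -0.162 to 0.1135 for Slc22a8 and -0.3788 to 0.02562 for Slc22a28. Relative to proximal tubule markers, Slc22a2 ran from -0.02368 to 0.09542 in males and Slc22a28 from -0.1607 to 0.0405 in females.

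Whole kidney RNA gives no level per cell, and protein and transport of the members were not measured. A gene not called with 5 mice in each group is not shown to be unchanged. With all 20 mice in 1 fit, 72.7% of calls in males were higher in mutants, where the separate fit gave 62.1%, and 55.6% of calls between the sexes in mutants were higher in males, where it gave 66.1%.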
